A study of Homo sapiens with 6 samples.

Results

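The genes described here encode the machinery that licenses origins of DNA replication, opens them and copies DNA at the fork. They are 51 genes chosen by name for their textbook role, out of 33616 genes measured, and all 51 were measured. Earlier results of these data were known when they were chosen. The cells were HepG2, an established line of human liver tumour cells that still makes much of what hepatocytes make. The 3 UHMK1 siRNA arrays held RNA of cells transfected with 30 nM of an siRNA against UHMK1, and the 3 scrambled siRNA arrays held RNA of cells transfected with 30 nM of a nonsense siRNA. Both were collected 24 h after transfection, and both carry the transfection reagent (Lipofectamine RNAiMAX) and the HepG2 background. The kinase that UHMK1 encodes is known to phosphorylate SF1, a splicing factor. The labels name a single UHMK1-specific siRNA and no rescue, so an effect of UHMK1 loss and another effect of this siRNA cannot be told apart.

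Replication is prepared in G1, when the origin recognition complex, CDC6 and CDT1 load the ring-shaped MCM2 to MCM7 helicase onto DNA, and geminin (GMNN) holds CDT1 back once S phase has begun. In S phase the CDC7 kinase with its DBF4 subunit, and the factors CDC45, GINS and MCM10, turn the loaded ring into a moving helicase. Polymerase alpha-primase lays primers, replication factor C (RFC) loads the sliding clamp PCNA, and polymerases delta and epsilon extend, while FEN1 and LIG1 join the lagging strand and chromatin assembly factor 1 places histones behind the fork. Many of these genes are known targets of E2F transcription factors and are transcribed most around the G1/S transition. In RNA of whole cultures, fewer cells in a cycle phase and less RNA per cell cannot be told apart.

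UHMK1 read 8.36, 7.80 and 7.94 on the UHMK1 siRNA arrays, against 11.42, 11.24 and 11.74 on the scrambled siRNA arrays, in log2 units of the deposited scale. The transcript fell by 3.43 (SE 0.20, adjusted p = 0.000112), and 9.26% of the signal was left. Hepatocyte markers were bright, with ALB at 18.43 to 18.83 on the UHMK1 siRNA arrays and 18.72 to 18.91 on the scrambled siRNA arrays, and 0 of 8 measured hepatocyte markers passed limma's test (1 was higher at an unadjusted p under 0.05). That marker was FGB, named with its values known. It stood at 0.70 (adjusted p = 0.0668), and its groups did not overlap. Without UHMK1 siRNA array 2 it was 0.83 higher and passed (adjusted p = 0.0385). Of the measured immune (4), endothelial (4), fibroblast and stellate (5) and biliary (4) markers 0 passed, also at an unadjusted p under 0.05. PECAM1 and PTPRC, defining markers of endothelial and immune cells, were dim, at 3.69 to 3.97 and 4.66 to 5.33 over all arrays. Some of the other listed markers were bright in both groups: CD68 averaged 11.47 in UHMK1 siRNA cells and 11.77 in scrambled siRNA cells, COL1A1 10.32 and 10.06, ACTA2 11.28 and 11.51, KRT19 14.53 and 14.66, SOX9 12.54 and 12.68, and EPCAM 15.49 and 15.45. The rest were dimmer. In the same order of groups, COL1A2 averaged 6.42 and 6.46, PDGFRB 5.81 and 5.92, DCN 4.41 and 4.54, and KRT7 6.15 and 6.07. CD3E averaged 5.75 and 5.97, CD14 5.06 and 5, VWF 6.08 and 6.3, CDH5 3.78 and 3.9, and KDR 3.64 and 3.48. UHMK1 siRNA array 2 stood apart: over the 15238 genes within the members' range of mean levels (5.44 to 15.58), its values had a median difference of -0.17 to the mean of the scrambled siRNA arrays. UHMK1 siRNA arrays 1 and 3 had medians of -0.01 and -0.04.

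Of the 51 replication genes, 23 fell after UHMK1 siRNA and 0 rose, at an adjusted p under 0.05 in limma over all 33616 genes, and 0 were higher at an unadjusted p under 0.05. The falls are 45.1% of the members. Of all genes tested 2.67% fell and 0.726% rose (897 and 244 genes), with 739 and 406 under cyclic loess and 680 and 429 under quantile normalization. Among protein-coding genes 4.63% fell, and among the 15238 genes within the members' range of mean levels 5.61% fell and 1.42% rose. All 51 changes were below 0, the nearest being RPA1 at -0.01, which turned to 0.11 under cyclic loess and 0.12 under quantile normalization, and to 0.04 without scrambled siRNA array 2. Without UHMK1 siRNA array 2, too, 50 of the 51 changes were below 0. Below 0 lay 54.2% of all genes and 58% of the genes within that range. The median change was -0.75, a level 1.69-fold lower, while the median of all genes was -0.02. In 42 of the 51 genes (82.4%) the UHMK1 siRNA arrays lay entirely below the scrambled siRNA arrays, as in 13.3% of all genes and 21.7% of those within the range.

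The median member stood at -0.67, -0.93 and -0.67 from the scrambled siRNA mean on UHMK1 siRNA arrays 1, 2 and 3. Array 2 held the lowest value of the 6 arrays for 33 members, and without it 20 members fell, with a median of -0.68. The count was 18 without UHMK1 siRNA array 1 and 19 without UHMK1 siRNA array 3. It dropped further, to 15, 11 and 12, without scrambled siRNA array 1, 2 and 3. With any of the 6 left out, the same 11 genes kept their fall: MCM2, MCM3, MCM5, ORC1, CDC6, CDC7, CDC45, GINS2, RFC5, CHAF1B and UHRF1.

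**Figure D1:**
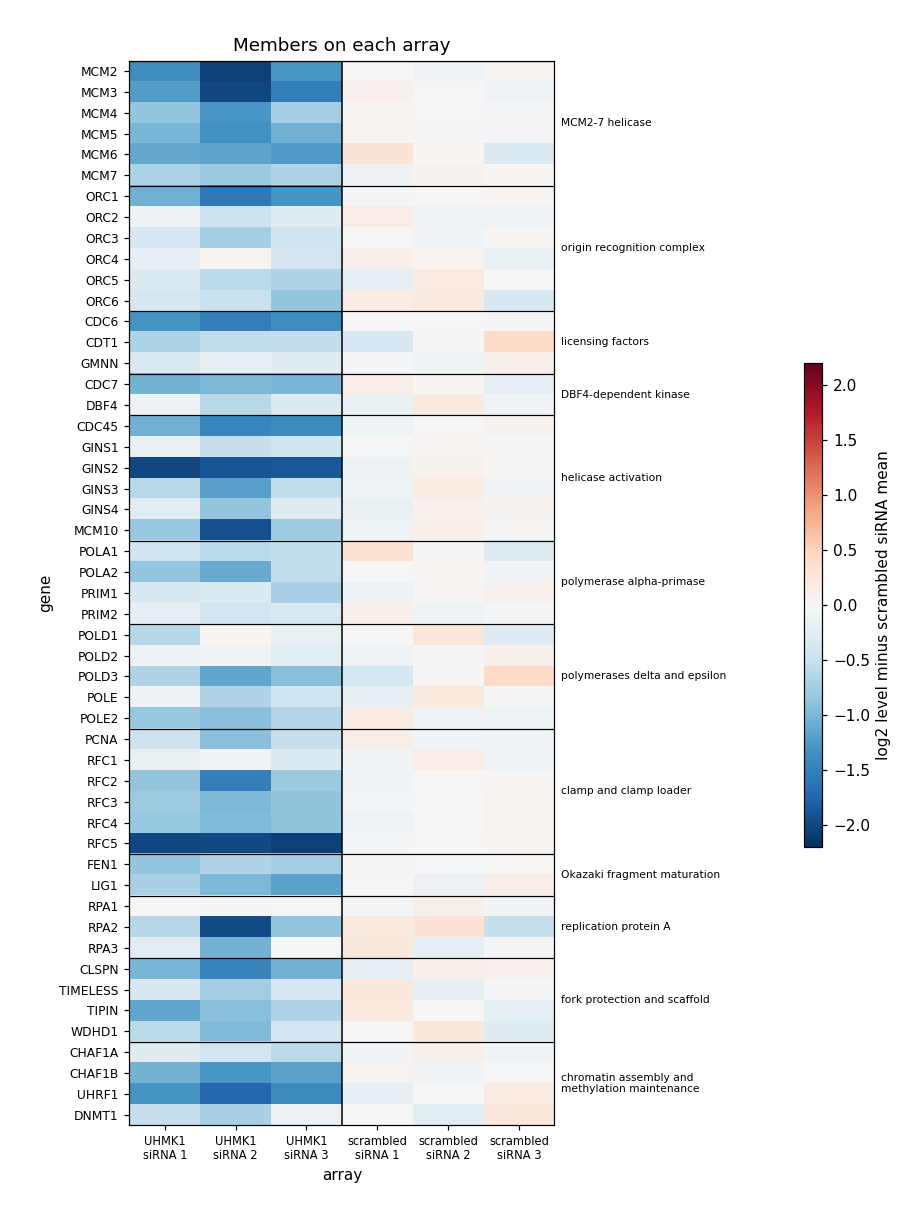
Heat map of the 51 genes (rows, grouped by subcomplex) on the 6 arrays (columns), with colour for the log2 level minus the gene's mean on the scrambled siRNA arrays. Blue runs through most rows of the 3 UHMK1 siRNA columns and is deep in all 3 for RFC5 and GINS2, while MCM2, MCM3, MCM10 and RPA2 are about as deep on UHMK1 siRNA array 2, and the median member stands at -0.67, -0.93 and -0.67 on UHMK1 siRNA arrays 1, 2 and 3.

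**Figure D2:**
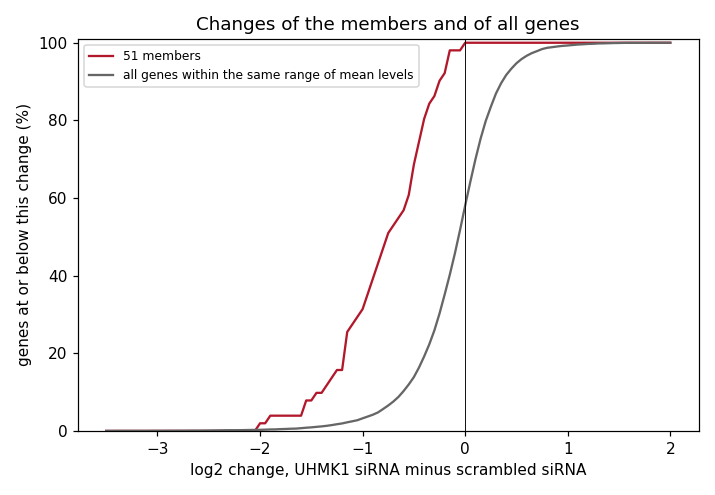
Share of genes (percent, y axis) with a log2 change, UHMK1 siRNA minus scrambled siRNA, at or below the value on the x axis, for the 51 members and for the 15238 genes within the same range of mean levels. The curve of the members lies to the left, with a median of -0.75 against -0.06.

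The promoters of the 4 members with the largest falls among those holding an E2F word are shown, since E2F factors are the textbook regulators of this gene group. Each window runs from 250 bases before to 50 bases after a RefSeq transcription start on assembly GRCh38.p14, 5′ to 3′ on the gene's strand. The capitals mark E2F words, which were TTCCCGC (the first form), then TTCGCGC (the second form), then TTGCCGC (the third form) and TTGGCGC (the fourth form), each on both strands. RFC5 (chr12:118016453-118016752, plus strand) holds 1 word just after the start, and GINS2 (chr16:85688905-85689204, minus strand) holds 1 word 31 bases before it. MCM3 (chr6:52284693-52284992, minus strand) holds 3 words, and MCM2 (chr3:127598161-127598460, plus strand) holds 2 that overlap each other on opposite strands.
RFC5: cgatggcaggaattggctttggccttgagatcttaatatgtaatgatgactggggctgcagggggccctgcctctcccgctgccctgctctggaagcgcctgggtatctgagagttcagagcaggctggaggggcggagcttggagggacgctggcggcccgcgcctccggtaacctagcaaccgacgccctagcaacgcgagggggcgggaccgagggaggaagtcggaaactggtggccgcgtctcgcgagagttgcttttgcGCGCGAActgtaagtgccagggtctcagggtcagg
GINS2: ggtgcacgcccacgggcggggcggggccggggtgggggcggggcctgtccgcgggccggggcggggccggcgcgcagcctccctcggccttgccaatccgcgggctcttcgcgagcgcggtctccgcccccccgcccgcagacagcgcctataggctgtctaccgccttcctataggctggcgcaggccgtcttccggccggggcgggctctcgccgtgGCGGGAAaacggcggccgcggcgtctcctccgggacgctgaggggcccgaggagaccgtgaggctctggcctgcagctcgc
MCM3: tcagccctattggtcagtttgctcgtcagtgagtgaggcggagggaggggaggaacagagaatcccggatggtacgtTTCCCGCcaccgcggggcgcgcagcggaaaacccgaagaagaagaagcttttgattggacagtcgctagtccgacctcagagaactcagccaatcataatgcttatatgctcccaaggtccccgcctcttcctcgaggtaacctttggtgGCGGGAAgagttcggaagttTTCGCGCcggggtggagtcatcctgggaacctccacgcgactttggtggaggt
MCM2: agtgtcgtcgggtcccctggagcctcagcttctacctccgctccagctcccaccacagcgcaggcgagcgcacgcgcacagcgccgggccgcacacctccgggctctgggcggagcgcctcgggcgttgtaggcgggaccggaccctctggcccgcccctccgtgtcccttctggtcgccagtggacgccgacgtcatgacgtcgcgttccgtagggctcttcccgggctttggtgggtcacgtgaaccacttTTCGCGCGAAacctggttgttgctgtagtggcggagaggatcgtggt

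RefSeq windows were matched by symbol for 45 of the 51 members, and 34 of these (75.6%) held an E2F word in at least 1 window. Of the 16474 tested genes with a window, 19.2% did, and so did 15.3% of all 27305 genes with a RefSeq window. The members' windows were also richer in G and C, with a median of 65.7% against 61.7% for tested genes. Among the 34 members with a word, 19 fell and the median change was -0.81. Of the 11 without a word 2 fell, CDC45 and FEN1, with a median of -0.35, and of the 6 with no window used here MCM4 and MCM5 fell. Of all genes tested 2.67% fell. The share that fell was not computed for tested genes with a word or without one. The G and C content of members with and without a word was not compared either. The word did not sort the genes cleanly, since RPA1 (-0.01) and RFC1 (-0.18) held it too. The CCAAT box, searched as CCAAT on both strands, whose reverse complement can overlap the fourth E2F form, was in the windows of 26 members (57.8%) and of 41.6% of tested genes. Members with it had a median change of -0.60 and those without it -0.78. These matches describe letters in a window and not binding.

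**Figure D3:**
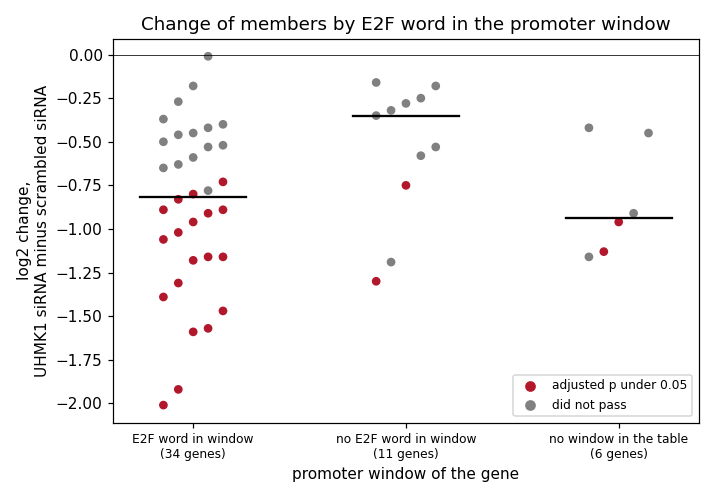
Log2 change of each member, UHMK1 siRNA minus scrambled siRNA (y axis), by whether its promoter window holds an E2F word (34 genes), holds none (11 genes) or is not in the table used (6 genes). Points are genes, red for those that fell at an adjusted p under 0.05, and lines are medians, at -0.81, -0.35 and -0.94.

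The MCM2 to MCM7 ring, the motor of the replicative helicase, was the largest subcomplex in which every subunit fell. All 6 subunits passed, with changes between -1.59 and -0.73 and a median of -1.16. MCM3 read 12.45, 11.69 and 12.16 on the UHMK1 siRNA arrays, against 13.78, 13.68 and 13.60 on the scrambled siRNA arrays, and fell by 1.59 (SE 0.20, adjusted p = 0.00403). MCM2 read 9.83, 9.15 and 9.93 after UHMK1 siRNA, against 11.22, 11.13 and 11.26 after scrambled siRNA, and fell by 1.57 (SE 0.21, adjusted p = 0.00512). For both subunits UHMK1 siRNA array 2 was the lowest, and no array of that group reached the scrambled siRNA arrays. Their promoter windows, printed above, hold 3 and 2 E2F words. A second, dimmer MCM2 probe set stood at 5.47 in UHMK1 siRNA cells and 6.02 in scrambled siRNA cells, a smaller difference of -0.55 in the same direction.

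MCM6 read 8.5, 8.47 and 8.39 in UHMK1 siRNA cells, against 9.91, 9.67 and 9.31 in scrambled siRNA cells, and fell by 1.18 (SE 0.18, adjusted p = 0.00893). The spread lay in the scrambled siRNA group here, and without its array 2 the change of -1.16 had adjusted p = 0.0528. MCM5 read 9.74, 9.41 and 9.70 after UHMK1 siRNA and 10.79, 10.73 and 10.73 after scrambled siRNA, and fell by 1.13 (SE 0.15, adjusted p = 0.00487). MCM4 read 11.88, 11.45 and 11.98, against 12.77, 12.72 and 12.71, and fell by 0.96 (SE 0.17, adjusted p = 0.0187). The call of MCM4 was lost without scrambled siRNA array 1 (-0.94), 2 (-0.97) or 3 (-0.97). MCM7 had the smallest change of the ring, at 14.06, 13.93 and 14.06 in UHMK1 siRNA cells, against 14.63, 14.82 and 14.78 in scrambled siRNA cells. It fell by 0.73 (SE 0.14, adjusted p = 0.0282), and with any array left out it no longer passed (-0.78 to -0.68), nor did it under quantile normalization (-0.58, adjusted p = 0.0542). Without scrambled siRNA array 2, 3 of the 6 subunits still passed, MCM2, MCM3 and MCM5.

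In the origin recognition complex, which marks origins, 1 of 6 subunits fell and the median change was -0.53. That subunit was ORC1, the ATPase that comes and goes with the cell cycle in human cells. It read 9.14, 8.62 and 8.90 after UHMK1 siRNA, against 10.15, 10.20 and 10.23 after scrambled siRNA, and fell by 1.31 (SE 0.17, adjusted p = 0.00417). All its UHMK1 siRNA arrays lay well below the scrambled siRNA arrays. The other subunits did not pass: ORC6 stood at -0.58 (adjusted p = 0.213), ORC5 at -0.53 (0.155), ORC3 at -0.52 (0.129), ORC2 at -0.28 (0.465) and ORC4 at -0.18 (0.712). ORC4 read 12.55, 12.79 and 12.30 in UHMK1 siRNA cells and 12.83, 12.78 and 12.56 in scrambled siRNA cells, and the groups overlapped. The 95% interval of ORC1, -1.69 to -0.93, overlapped that of ORC6 (-1.05 to -0.11) and lay below those of ORC5 (-0.91 to -0.15), ORC3 (-0.88 to -0.17), ORC2 (-0.63 to 0.07) and ORC4 (-0.57 to 0.21). Differences between the subunits were not tested.

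Of the 3 factors around helicase loading, CDC6 fell and CDT1 and GMNN did not pass. CDC6, the ATPase that loads the helicase with the origin recognition complex, read 13.29, 13.06 and 13.21 in UHMK1 siRNA cells and 14.57, 14.57 and 14.60 in scrambled siRNA cells. It fell by 1.39 (SE 0.14, adjusted p = 0.00166), with little spread within either group. CDT1, which brings the MCM ring to the origin, read 7.12, 7.26 and 7.28, against 7.44, 7.76 and 8.22, a change of -0.59 (adjusted p = 0.195). Its groups did not overlap, but the scrambled siRNA arrays were spread widely. GMNN, the inhibitor of CDT1, had the smallest change of the group, at 13.55, 13.68 and 13.63 after UHMK1 siRNA, against 13.87, 13.79 and 14.01 after scrambled siRNA. Its change was -0.27 (95% interval -0.59 to 0.05, adjusted p = 0.434).

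Of the kinase that fires licensed origins, the catalytic subunit fell and the activating subunit did not pass, and no test of their difference was made. CDC7, the catalytic subunit, read 9.59, 9.64 and 9.62 after UHMK1 siRNA, against 10.78, 10.68 and 10.44 after scrambled siRNA, and fell by 1.02 (SE 0.15, adjusted p = 0.00796). DBF4, which activates it, read 11.73, 11.24 and 11.54, against 11.71, 12.07 and 11.78, a change of -0.35 (95% interval -0.76 to 0.06, adjusted p = 0.414). The DBF4 groups overlapped, and a second dim DBF4 probe set stood at 0.07. A DBF4 pseudogene, DBF4P1, was read separately at -0.21, and probes can bind either transcript.

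Among the 6 factors that turn the loaded ring into an active helicase, GINS2 and CDC45 fell and the median change was -0.98. GINS2, a subunit of the GINS tetramer, read 9.97, 10.07 and 10.10 in UHMK1 siRNA cells and 11.86, 12.05 and 12.0 in scrambled siRNA cells. It fell by 1.92 (SE 0.14, 95% interval -2.24 to -1.60, adjusted p = 0.000377), which was 3.79-fold and the 51st lowest change of all 33616 genes. Its E2F word is the reverse complement of TTCCCGC in the window printed above. CDC45, which joins GINS and the MCM ring, read 7.99, 7.62 and 7.64 after UHMK1 siRNA, against 8.96, 9.05 and 9.13 after scrambled siRNA, and fell by 1.30 (SE 0.16, adjusted p = 0.00344).

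The other subunits of GINS did not pass. GINS1 read 14.08, 13.75 and 13.81 in UHMK1 siRNA cells, against 14.24, 14.29 and 14.22 in scrambled siRNA cells, a change of -0.37 (95% interval -0.71 to -0.03, adjusted p = 0.281). GINS3 stood at -0.78 (adjusted p = 0.0778) and GINS4 at -0.45 (adjusted p = 0.322). Further, dim GINS3 probe sets stood at 0.27 and -0.35. The interval of GINS2 lay below those of GINS1, GINS3 (-1.23 to -0.33) and GINS4 (-0.90 to 0.00), although the proteins form 1 tetramer. No test of their differences was made. MCM10, which helps activate the helicase, read 6.98, 5.88 and 7.04 after UHMK1 siRNA, against 7.74, 7.93 and 7.79 after scrambled siRNA. Its change of -1.19 (SE 0.29, adjusted p = 0.0623) rested in part on UHMK1 siRNA array 2, and without that array it was -0.81 and passed (adjusted p = 0.0318).

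**Figure D4:**
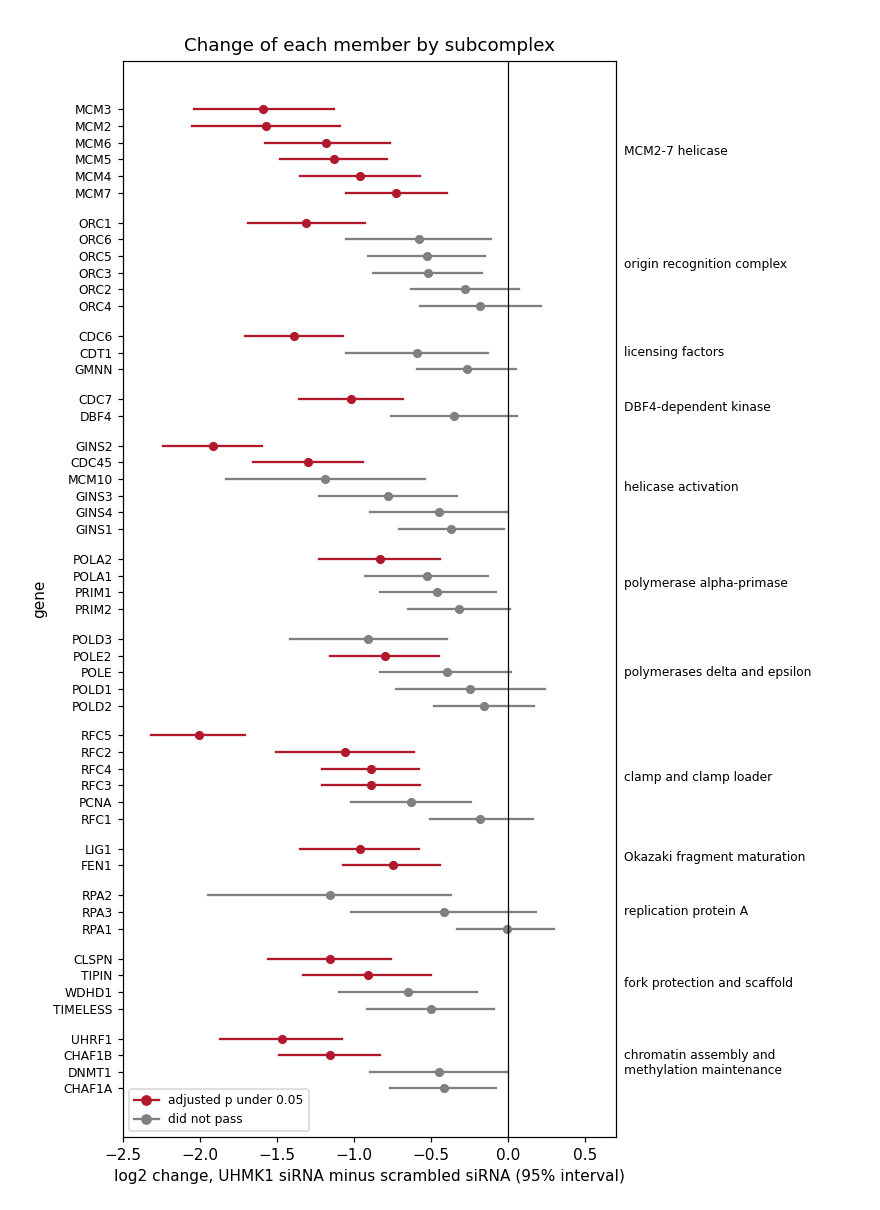
Log2 change, UHMK1 siRNA minus scrambled siRNA (x axis), with its 95% interval for each of the 51 genes, grouped by subcomplex, in red where the adjusted p was under 0.05. RFC5 (-2.01) and GINS2 (-1.92) lie farthest from 0, and RPA1 (-0.01) lies nearest.

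The clamp loader RFC held the largest fall of the 51 genes. RFC5, a small subunit of the loader, read 10.50, 10.51 and 10.45 in UHMK1 siRNA cells, against 12.46, 12.49 and 12.55 in scrambled siRNA cells. It fell by 2.01 (SE 0.14, 95% interval -2.32 to -1.71, adjusted p = 0.000240), a 4.04-fold difference that left 24.8% of the signal and ranked 41st among the falls of all genes. The arrays of each group lay very close to each other and far from the other group. The pseudogene RFC5P1 was near the bottom of the scale, at 3.24 ± 0.12 and 3.38 ± 0.40 (SD, n = 3 each) in UHMK1 siRNA and scrambled siRNA cells.

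RFC2, RFC3 and RFC4, the other small subunits, fell as well. RFC2 read 8.43, 7.79 and 8.48 after UHMK1 siRNA, against 9.24, 9.31 and 9.33 after scrambled siRNA, and fell by 1.06 (SE 0.20, adjusted p = 0.0233). RFC3 read 12.48, 12.29 and 12.39, against 13.23, 13.27 and 13.33, and fell by 0.89 (SE 0.14, adjusted p = 0.0106). RFC4 read 12.76, 12.62 and 12.71, against 13.52, 13.60 and 13.65, and fell by 0.89 (SE 0.14, adjusted p = 0.00996). Their intervals overlapped one another, and the lower bounds of RFC2 (-1.51), RFC3 (-1.21) and RFC4 (-1.21) stayed above the upper bound of RFC5. Differences between these genes were not tested. RFC3 and RFC4 lost their calls without scrambled siRNA array 2 (-0.89 for each) or 3 (-0.86 for each), and RFC2 without scrambled siRNA array 1 (-1.09), 2 (-1.05) or 3 (-1.04). With a second, dim RFC3 probe set averaged in, RFC3 stood at -0.63 (adjusted p = 0.0697).

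RFC1, the large subunit of the loader, read 12.02, 12.12 and 11.89 after UHMK1 siRNA, against 12.12, 12.33 and 12.11 after scrambled siRNA. Its change was -0.18 (95% interval -0.51 to 0.16, adjusted p = 0.659), and its groups overlapped. PCNA, the sliding clamp itself, read 15.44, 14.97 and 15.38, against 16.03, 15.84 and 15.81, a change of -0.63 (SE 0.17, adjusted p = 0.0983). The PCNA arrays did not overlap between the groups, and UHMK1 siRNA array 2 was the lowest. PCNA passed with a minimum mean level of 6 (adjusted p = 0.0309) and with eBayes trend and robust (adjusted p = 0.0199), which made 5 of the 6 genes lower. So 4 of 6 genes of the clamp and its loader fell, with a median of -0.89, and these 4 were the small loader subunits. Without scrambled siRNA array 2 or 3, RFC5 alone of them passed.

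The polymerases changed less than the helicase genes in median, at -0.49 for polymerase alpha-primase and -0.40 for polymerases delta and epsilon. Of the 9 polymerase and primase genes, POLA2 and POLE2 fell, both of them accessory subunits. POLA2 read 8.06, 7.80 and 8.37 in UHMK1 siRNA cells, against 8.92, 8.96 and 8.85 in scrambled siRNA cells, and fell by 0.83 (SE 0.17, adjusted p = 0.0364). POLE2 read 8.92, 8.84 and 9.11, against 9.94, 9.67 and 9.67, and fell by 0.80 (SE 0.16, adjusted p = 0.0270). Both calls were near the threshold: POLE2 lost it with any array left out (-0.88 to -0.71), and POLA2 without any scrambled siRNA array (-0.86 to -0.81) or without UHMK1 siRNA array 1 (-0.83) or 2 (-0.70). Under quantile normalization POLE2 (-0.64, adjusted p = 0.0564) and POLA2 (-0.70, adjusted p = 0.0509) missed it too.

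The catalytic subunits and the primase subunits did not pass. POLA1, of polymerase alpha, stood at -0.53 (adjusted p = 0.177), the primase subunits PRIM1 at -0.46 (0.216) and PRIM2 at -0.32 (0.354), and POLE, of polymerase epsilon, at -0.40 (0.356). PRIM2 had the smallest change of its group, at 12.06, 11.85 and 11.92 after UHMK1 siRNA, against 12.38, 12.17 and 12.23 after scrambled siRNA, and partial copies of PRIM2 in the genome may share its probes. A second PRIM2 probe set averaged 8.26 after UHMK1 siRNA and 8.79 after scrambled siRNA, a larger difference of -0.53. A second, dim POLE probe set (4.44 against 5.17) stood at -0.73. POLD1, of polymerase delta, was the dimmest member, at 4.94, 5.61 and 5.39, against 5.57, 5.83 and 5.28, and its change was -0.25 (95% interval -0.73 to 0.24, adjusted p = 0.671). Its groups overlapped, near the dim end of the scale. POLD3, an accessory subunit, stood at -0.91 (SE 0.23, adjusted p = 0.0685). POLD2 had the smallest change of the group, at 11.71, 11.75 and 11.61 in UHMK1 siRNA cells and 11.76, 11.82 and 11.96 in scrambled siRNA cells (-0.16, 95% interval -0.48 to 0.17).

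Both genes that finish Okazaki fragments fell. LIG1, the ligase that seals them, read 5.54, 5.26 and 5.08 after UHMK1 siRNA, against 6.24, 6.13 and 6.40 after scrambled siRNA, and fell by 0.96 (SE 0.17, adjusted p = 0.0173). FEN1, the nuclease that cuts the flap, read 12.47, 12.66 and 12.57, against 13.34, 13.31 and 13.31, and fell by 0.75 (SE 0.14, adjusted p = 0.0216). Neither gene overlapped between the groups. LIG1 was dim, averaging 5.29 in UHMK1 siRNA cells and 6.26 in scrambled siRNA cells. The median of all genes was 5.21 to 5.25 on each array, so its fall was read near the dim end of the scale. LIG1 lost its call without scrambled siRNA array 1 (-0.97), 2 (-1.03) or 3 (-0.89) or UHMK1 siRNA array 3 (-0.86), and FEN1 kept it only when UHMK1 siRNA array 2 was the array left out (-0.80, and -0.76 to -0.70 for the others). FEN1 also missed the threshold under cyclic loess (-0.63, adjusted p = 0.0627) and quantile normalization (-0.62, adjusted p = 0.0632). A FEN1 pseudogene, FEN1P1, averaged 9.09 after UHMK1 siRNA and 9.78 after scrambled siRNA. Its change of -0.69 did not pass, and probes can bind either transcript.

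Replication protein A, the trimer that coats single-stranded DNA, had 0 calls in limma, 1 subunit lower at an unadjusted p under 0.05, and uneven arrays for RPA2 and RPA3. RPA1, its largest subunit, read 13.09, 13.04 and 13.07 in UHMK1 siRNA cells and 13.03, 13.19 and 13.02 in scrambled siRNA cells. The change of -0.01 had a 95% interval of -0.33 to 0.30, and RPA1 is the member with the least change. RPA2 read 8.05, 6.71 and 7.81, against 8.89, 8.98 and 8.18, a change of -1.16 (SE 0.35, adjusted p = 0.13) that became -0.75 without UHMK1 siRNA array 2. RPA3 read 9.80, 9.01 and 10.06, against 10.29, 9.83 and 10.01, a change of -0.42 (adjusted p = 0.524) that became -0.11 without that array. UHMK1 siRNA array 2 was thus the lowest for RPA2 and RPA3, while RPA1 was level on all 6 arrays.

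Of the 4 proteins that travel with the fork, claspin (CLSPN) and TIPIN fell, and the median change was -0.78. CLSPN, an adaptor of the replication checkpoint, read 10.40, 9.95 and 10.37 after UHMK1 siRNA, against 11.21, 11.51 and 11.49 after scrambled siRNA, and fell by 1.16 (SE 0.18, adjusted p = 0.00907). TIPIN read 8.55, 8.77 and 9.03, against 9.92, 9.68 and 9.49, and fell by 0.91 (SE 0.18, adjusted p = 0.0298). TIMELESS, its binding partner, read 8.85, 8.43 and 8.81, against 9.45, 8.99 and 9.16, a change of -0.50 (adjusted p = 0.221). WDHD1, which links polymerase alpha to the helicase, stood at -0.65 (adjusted p = 0.137). In all 4 genes the groups did not overlap. CLSPN lost its call without scrambled siRNA array 2 (-1.11) or 3 (-1.12), and TIPIN kept it only when UHMK1 siRNA array 3 was the array left out (-1.04, and -1.02 to -0.80 for the others). TIPIN also missed the threshold under cyclic loess (-0.79, adjusted p = 0.0571) and quantile normalization (-0.75, adjusted p = 0.0743).

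Behind the fork, UHRF1 and CHAF1B fell and CHAF1A and DNMT1 did not pass. UHRF1, which recognises hemimethylated DNA and brings in DNMT1, read 11.13, 10.71 and 11.04 in UHMK1 siRNA cells, against 12.25, 12.43 and 12.62 in scrambled siRNA cells, and fell by 1.47 (SE 0.17, adjusted p = 0.00290). DNMT1, the maintenance methyltransferase, read 9.75, 9.53 and 10.12, against 10.25, 10.00 and 10.50, a change of -0.45 (95% interval -0.90 to 0.00, adjusted p = 0.332), and its groups overlapped. CHAF1B, a subunit of chromatin assembly factor 1, read 9.27, 9.03 and 9.13 after UHMK1 siRNA, against 10.37, 10.24 and 10.30 after scrambled siRNA, and fell by 1.16 (SE 0.14, adjusted p = 0.00364). CHAF1A, the large subunit of the same factor, read 8.61, 8.47 and 8.30, against 8.82, 9.0 and 8.83, a change of -0.42 (95% interval -0.77 to -0.08, adjusted p = 0.212). The intervals of UHRF1 (-1.87 to -1.08) and DNMT1 did not overlap, nor did those of CHAF1B (-1.49 to -0.83) and CHAF1A. The difference within each pair was not tested.

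Across the 12 subcomplexes every median was below 0, from -1.16 for the MCM ring to -0.40 for polymerases delta and epsilon. The last place was not stable. Replication protein A stood at -0.42, and at -0.64 to -0.11 with 1 array left out. With probe sets averaged it stayed at -0.42, while polymerases delta and epsilon stood at -0.57. Of the 23 falls, 14 were at least 2-fold and 9 were smaller, and these 14 are 27.5% of the members, against 1.42% of all genes. At an unadjusted p under 0.05, 39 of the 51 members were lower, as were 10.1% of all genes. These 39 are the 23 that passed and 16 of the 28 that did not. The smallest change that passed anywhere on the array was 0.60 in size, although ORC3 passed at -0.52 with a minimum mean level of 6 (adjusted p = 0.041) and with eBayes trend and robust (adjusted p = 0.0479). No test of 1 subcomplex against another was made, because their genes were measured in the same 6 samples.

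Replication genes outside the 51 showed a smaller shift. Of 22 measured among 25 other replication factors, 5 fell and 0 rose, 19 changes were below 0, and the median was -0.41. Of all genes 2.67% fell, 0.726% rose and 54.2% were below 0. The 3 factors not below 0, named with their values known, were POLE3 (0.15), POLD4 (0.12) and TICRR (0). DTL, the substrate receptor that sends CDT1 to degradation, read 11.11, 10.47 and 11.03 after UHMK1 siRNA, against 12.36, 12.31 and 12.42 after scrambled siRNA, and fell by 1.49 (SE 0.19, adjusted p = 0.00403). MCMBP, which binds MCM subunits, fell by 1.06 and DSCC1, of an alternative clamp loader, fell by 1.21. ATAD5, which unloads PCNA, fell by 0.95, and so did the polymerase epsilon subunit POLE4, which fell by 0.96 and is named here with its values known. DTL, MCMBP and DSCC1 kept their calls with any array left out, whereas ATAD5 lost it without any scrambled siRNA array (-0.96 to -0.93). POLE4 lost it without scrambled siRNA array 1 (-1.03), 2 (-0.94) or 3 (-0.91) or UHMK1 siRNA array 3 (-0.99), so that 3 factors fell without any 1 scrambled siRNA array.

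Of 10 histone chaperones and chromatin factors at forks, 2 fell and 0 rose, all 10 changes were below 0, and the median was -0.49. Of all genes 2.67% fell and 54.2% were below 0. SSRP1, a subunit of the histone chaperone FACT, read 12.77, 12.93 and 12.70 in UHMK1 siRNA cells, against 14.38, 14.36 and 14.32 in scrambled siRNA cells. It fell by 1.55 (SE 0.14, 95% interval -1.88 to -1.23, adjusted p = 0.000956) and kept the call with any array left out. SUPT16H, the other subunit of FACT, named after its values were seen, stood at -0.30 (95% interval -0.68 to 0.09, adjusted p = 0.481). The chromatin remodeller HELLS fell by 0.87 (adjusted p = 0.0463) and missed the threshold whichever array was left out (-1.0 to -0.66). MMS22L stood at -0.78 (adjusted p = 0.0859) and passed without UHMK1 siRNA array 3 (adjusted p = 0.0478), while the histone chaperone ASF1A stood at -0.62 (adjusted p = 0.0984). With 1 array left out, 1 to 2 of the 10 genes fell.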

How the data were processed

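The deposited table holds log2 expression values of 135750 probe sets on 6 Affymetrix arrays, which carried biotinylated cRNA, per the labels' protocols. Per the submitters' processing notes, the authors computed these log2 values with RMA in Transcriptome Analysis Console 4.0. RMA corrects background, gives all arrays 1 distribution and summarises probes, so a shift shared by all transcripts is removed. The array design's build was not given in the sources used here.

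Each probe set with exactly 1 symbol (36176) took its name from the platform annotation, and older symbols were replaced through Entrez IDs by those of RefSeq (GRCh38.p14). The brightest probe set over all 6 arrays stood for each of 33616 genes. limma 3.58.1 (lmFit and eBayes, two-sided, R 4.3.3) tested UHMK1 siRNA minus scrambled siRNA with no covariates. P-values were adjusted by Benjamini-Hochberg over all genes, and "rose" or "fell" means an adjusted p under 0.05. Intervals are 95% intervals of single genes, not adjusted for the number of genes. Whether they overlap is no test of 1 gene against another. The code was tested on simulated data.

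The members and lists were chosen with earlier results of these data known, so they are no independent support for a pattern already seen. The rule for named genes took every member, with values on each array for those that passed and for the smallest change of each subcomplex, and the 4 smallest p-values of both other replication lists. Array values of CDT1, MCM10, PCNA, POLD1, RPA2, RPA3 and DNMT1 are given beside that rule and were chosen with values known, as were genes said to be. Separate cultures are not stated for the samples of a group, so the p-values cover the spread among these arrays alone, which may be technical, and their number limits the precision. Arrays with the same number did not deviate together (correlations 0.051, 0.028 and -0.043), and the numbers were not used as pairs. The alternatives were cyclic loess, quantile normalization, a mean log2 level of at least 6, the mean over probe sets, eBayes with trend and robust, a replicate block, and leaving out each array.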

Additional observations from a re-analysis of the deposited data

How the results depend on the processing

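In all 12 other settings 0 members rose and the median over members was below 0. Among the 51 members, 22 fell under cyclic loess, 18 under quantile normalization, 29 of 49 tested with a mean level of at least 6, 22 with probe sets averaged, 28 with eBayes trend and robust, and 11 to 20 with 1 array left out. The replicate block gave 18 falls, all among the 23, with 576 lower and 146 higher genes in all. Over all genes, 1570 were lower and 517 higher with the level minimum, and 400 were higher with trend and robust. Higher genes numbered 406 under cyclic loess and 429 under quantile normalization. With 1 array left out, 319 to 662 genes were lower and 70 to 237 higher. The cause of these differences was not tested, except that the level minimum tests fewer genes and drops LIG1 and POLD1.

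With the level minimum, and likewise with trend and robust, the falls numbered 5 histone chaperones and chromatin factors, 2 origin recognition (with ORC3), 4 helicase activation (with GINS3 and MCM10), 2 polymerase delta and epsilon (with POLD3) and 5 clamp and loader genes (with PCNA). The level minimum also gave 1 fall in replication protein A (RPA2), a fall of WDHD1, and 1 in Okazaki fragment maturation. Quantile normalization and the replicate block each gave 1 fall among histone chaperones, 0 in polymerase alpha-primase, 0 in polymerases delta and epsilon, 1 in Okazaki fragment maturation and 1 in fork protection, and cyclic loess gave 1 in each of those last 2. With 1 array left out the falls were 3 to 5 for other replication factors, 1 to 2 for histone chaperones, 3 to 5 for the MCM ring, 2 to 3 for helicase activation, 1 to 4 for the clamp and loader, 0 to 1 for polymerase alpha-primase, 0 to 0 for polymerases delta and epsilon, 0 to 2 for Okazaki fragment maturation and 0 to 2 for fork protection.

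Medians under cyclic loess, then quantile normalization, were -0.63 and -0.62 for all members, -1.03 and -0.99 for the MCM ring, -0.40 and -0.38 for origin recognition, -0.56 and -0.53 for the DBF4-dependent kinase, -0.37 and -0.33 for polymerase alpha-primase, -0.29 and -0.25 for polymerases delta and epsilon, -0.77 and -0.75 for the clamp and loader, and -0.68 and -0.65 for chromatin assembly. The level minimum gave -0.60 for polymerases delta and epsilon and -0.75 for Okazaki fragment maturation, and averaged probe sets gave -0.57 for the polymerases and -0.76 for the clamp and loader. With 1 array left out, medians ran from -0.62 to -0.45 for origin recognition, -0.77 to -0.38 for licensing factors, -1.11 to -0.69 for helicase activation, -0.54 to -0.42 for polymerase alpha-primase and -0.55 to -0.30 for polymerases delta and epsilon. RPA1 was 0.11 under cyclic loess, 0.12 under quantile normalization and -0.04 to 0.04 with 1 array left out.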
